A study of Homo sapiens with 8 samples.

Results

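The 40 genes described here act in G2, the interval before cell division, and in mitosis. They are mitotic cyclins and kinases, spindle checkpoint and kinetochore genes, kinesins and cytokinesis genes, taken by symbol from a deposited table of 23459 genes. All 40 had enough reads to be tested, among 13925 genes that passed the filter on low counts. The RNA-seq data comprise 8 libraries from Hct116 cells, an established human colorectal carcinoma line, and the labels name no genetic change. For 4 libraries the cells had received DMSO, the solvent, and for the other 4 Lenalidomide at 30 μM, and RNA was taken after 16 h. Lenalidomide binds cereblon, the substrate receptor of the CRL4-CRBN ubiquitin ligase, and redirects the ligase to other proteins. RNA-seq was done to see whether the drug altered RNA levels in the cells used for protein turnover measurements. No synchronization of the cells is described, so that each library is a mixture over the cell cycle. The medium was exchanged for one with heavy amino acids when the drug was added, and the harvested cells were divided between mass spectrometry and RNA-seq. The series design and the paper's account of the RNA data call the 4 libraries per treatment biological replicates. The methods call the 4 mass spectrometry replicates technical, 2 of them with the isotope labels swapped, and do not say which RNA libraries belong to these. If the libraries did not come from separate cultures, the p-values measure technical spread only. Defining transcripts of epithelium were high in every library, with at least 10767 counts each for EPCAM, KRT8, KRT18 and KRT19, and CDH1 and CLDN4 had at least 1218. Of 9 markers of other cell types, PTPRC, CD3E, CD79A, HBB, PECAM1 and COL3A1 had at most 7 counts in any library, ALB had 2 to 12, DES 27 to 70 and COL1A1 81 to 122.

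Entry into mitosis is driven by CDK1 bound to B-type cyclins. The RNAs of cyclins, mitotic kinases and kinetochore proteins accumulate in G2 and fall again after division, because their promoters are held silent by the DREAM complex in G1 and are turned on by the MuvB core with B-MYB and FOXM1 in G2. The contact point of MuvB on DNA is the cell cycle genes homology region (CHR), often with the core TTTGAA close to the start of transcription, and CCAAT boxes bound by the factor NF-Y usually lie a few helical turns upstream. Anaphase begins when the ubiquitin ligase APC/C with CDC20 marks securin and cyclin B for destruction. The summed RNA of such genes in a bulk sample rises and falls with the share of cells in G2 and mitosis. In these bulk libraries fewer such cells and less RNA per cell cannot be told apart.

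Promoter windows from 250 bases before to 50 bases after the gene start, from RefSeq on GRCh38.p14, were found for 35 of the 40 genes. None was given for TTK, AURKA, TPX2, BIRC5 and FOXM1. A set of 6 promoters is shown because their genes carry the comparison below, namely the mitotic kinase CDK1 with its partner cyclins, PLK1, and the 2 genes with the highest log2 fold changes, MKI67 and CENPA. Each run holds the 250 bases before the start, 5′ to 3′ on the strand of the gene, and capitals mark TTTGAA and CCAAT on either strand, so that TTCAAA and ATTGG are also capitals. Where a gene had more than 1 window, the run comes from the window with the most matches. Positions are on GRCh37, the build of the alignment, from a single exact match of each run. The start meant here is that of the RefSeq window, and GENCODE places gene starts differently. For every gene shown but MKI67 the GENCODE span begins before the end of the run. That of CENPA begins far upstream, at 26987157.
CDK1, chr10:62537986-62538235, plus strand: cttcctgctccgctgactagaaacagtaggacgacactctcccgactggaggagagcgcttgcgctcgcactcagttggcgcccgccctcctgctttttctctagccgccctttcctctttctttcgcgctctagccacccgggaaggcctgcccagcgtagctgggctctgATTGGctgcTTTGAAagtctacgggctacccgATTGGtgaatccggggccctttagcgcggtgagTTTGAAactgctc
CCNB1, chr5:68462727-68462976, plus strand: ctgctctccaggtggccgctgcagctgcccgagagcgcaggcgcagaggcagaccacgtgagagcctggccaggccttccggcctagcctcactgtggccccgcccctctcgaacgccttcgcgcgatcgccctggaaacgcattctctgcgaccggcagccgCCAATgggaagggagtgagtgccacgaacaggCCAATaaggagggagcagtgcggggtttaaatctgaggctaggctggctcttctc
CCNB2, chr15:59397095-59397344, plus strand: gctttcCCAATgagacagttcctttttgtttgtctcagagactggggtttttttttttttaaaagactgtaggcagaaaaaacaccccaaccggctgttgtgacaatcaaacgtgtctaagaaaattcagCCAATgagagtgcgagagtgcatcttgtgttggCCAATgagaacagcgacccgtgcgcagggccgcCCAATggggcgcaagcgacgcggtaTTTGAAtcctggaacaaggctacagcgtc
PLK1, chr16:23689960-23690209, plus strand: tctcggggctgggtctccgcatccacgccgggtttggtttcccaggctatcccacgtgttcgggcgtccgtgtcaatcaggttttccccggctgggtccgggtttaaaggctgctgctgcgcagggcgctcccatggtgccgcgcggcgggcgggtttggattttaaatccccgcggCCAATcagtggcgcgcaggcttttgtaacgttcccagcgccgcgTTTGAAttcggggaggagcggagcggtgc
CENPA, chr2:27008674-27008923, plus strand: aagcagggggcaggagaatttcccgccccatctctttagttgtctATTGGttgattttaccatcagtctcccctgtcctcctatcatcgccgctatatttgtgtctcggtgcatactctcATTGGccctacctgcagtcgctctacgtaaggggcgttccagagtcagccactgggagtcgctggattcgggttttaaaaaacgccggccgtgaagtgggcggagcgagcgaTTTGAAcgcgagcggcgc
MKI67, chr10:129924688-129924937, minus strand: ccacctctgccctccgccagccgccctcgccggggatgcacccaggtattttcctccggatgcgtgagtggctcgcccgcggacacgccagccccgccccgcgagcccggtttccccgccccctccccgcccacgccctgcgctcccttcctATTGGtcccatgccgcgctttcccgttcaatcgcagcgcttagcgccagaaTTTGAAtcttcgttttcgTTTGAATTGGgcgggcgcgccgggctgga

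The genes share these letters more often than genes at large, a feature the choice of members did not use. TTTGAA stood on either strand in a window of 25 of the 35 genes, which is 71.4%, against 18.2% of 27305 genes with a window. The related core TTCGAA, its own reverse complement, was found for BUB1, NDC80 and CDC25B. CCAAT was found for 29 of the 35 genes, or 82.9%, against 39.7% of all genes. A CHR core of either kind together with CCAAT was found for 23 of the 35 genes, against 7.85% of all genes. No TTTGAA or TTCGAA was found in the windows of AURKB, CCNA2, CCNB1, CENPE, KIF20A, KIF2C, NEK2 and PTTG1, which says only that these letters are not in these windows. In 1 place of the MKI67 promoter the last base of TTTGAA is also part of a CCAAT box on the other strand. The letters also had preferred places. Of 40 matches of TTTGAA, 19 began within the 50 bases before the gene start, or 47.5%, against 14.7% of the 6238 matches over all windows. Of 71 matches of CCAAT, 49 began between 125 and 25 bases before the start, or 69.0%, against 48.1% over all windows. For 6 genes there was more than 1 window, and some of these windows overlap. No test was made on the promoters, and a match is a description of the sequence, not of a bound site.

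**Figure D1:**
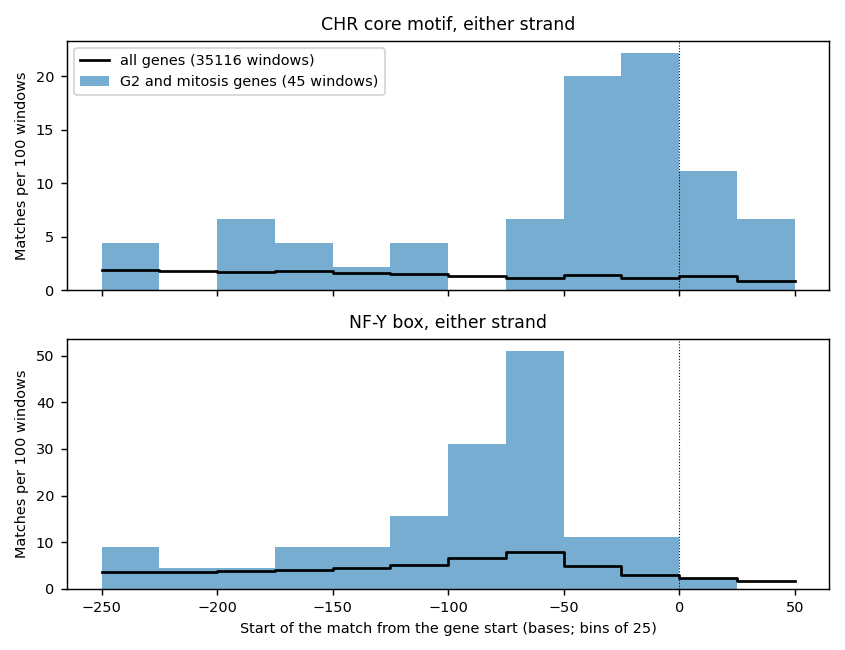
Matches of the CHR core TTTGAA (top) and of the NF-Y box CCAAT (bottom) on either strand, per 100 promoter windows and in bins of 25 bases, for the 45 windows of the G2 and mitosis genes (bars) and for all 35116 windows (line). In the members TTTGAA is most frequent in the bin from 25 bases before the start up to the start, with 22.2 matches per 100 windows against 1.17 over all windows, and CCAAT in the bin from 75 to 50 bases before it, with 51.1 against 7.79.

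The RNAs of most of the 40 genes were abundant in Hct116 cells, and their order by level hardly differed between treatments. Levels of different genes were compared per length as RPKM, which is CPM (counts scaled to the size of the library) per kilobase of exonic width. With DMSO they lay between the percentiles 57.0 and 99.1 of all genes tested, with a median percentile of 92.4. CCNB1, the cyclin that activates CDK1 at mitotic entry, was the highest at 376 ± 9.33 RPKM (SD, n = 4). MAD2L1, the checkpoint protein that inhibits CDC20, followed at 158 ± 7.08 RPKM, and TPX2, which activates AURKA on spindle microtubules, at 156 ± 8.38 RPKM. The values of MAD2L1 and TPX2 overlapped. At the other end stood CENPE, a kinesin of the kinetochore, with 20.9 ± 0.953 RPKM, CENPA, the histone H3 variant of centromeres, with 16.0 ± 0.656 RPKM, and CDC25C, a phosphatase that activates CDK1, with 8.54 ± 0.423 RPKM (SD, n = 4 each). The highest and the lowest gene thus differed 44.1-fold. Of the 39 neighbouring pairs in this order, 30 had overlapping DMSO values, so that the middle of the order is not resolved. The rank was the same in both treatments for 25 genes and differed by at most 3 places.

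Subunits of the same complex were not equal in RNA level. In the NDC80 complex, which attaches kinetochores to microtubules, NDC80 had 54.6 ± 1.77 RPKM with DMSO, above SPC25 with 41.7 ± 2.83 RPKM and NUF2 with 40.4 ± 2.16 RPKM (SD, n = 4 each). The values of SPC25 and NUF2 overlapped. In the chromosomal passenger complex, which corrects faulty attachments, BIRC5 stood at 84.0 ± 2.41 RPKM, the kinase AURKB at 47.5 ± 1.04, CDCA8 at 29.2 ± 0.665 and the scaffold INCENP at 25.9 ± 2.83 RPKM with DMSO (SD, n = 4 each). The values of CDCA8 and INCENP overlapped. CDK1 itself, with 42.4 ± 5.37 RPKM, was far below its cyclin CCNB1, and CCNA2, the cyclin of S phase and early G2, stood between them at 92.5 ± 7.27 RPKM. Distances between genes depend on the exonic width, which was 4435 bases for CDK1, 2798 for CCNA2 and 2341 for CCNB1. Before division by width their DMSO means were 188, 259 and 881 CPM. The lengths of the transcripts present in these cells were not measured.

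**Figure D2:**
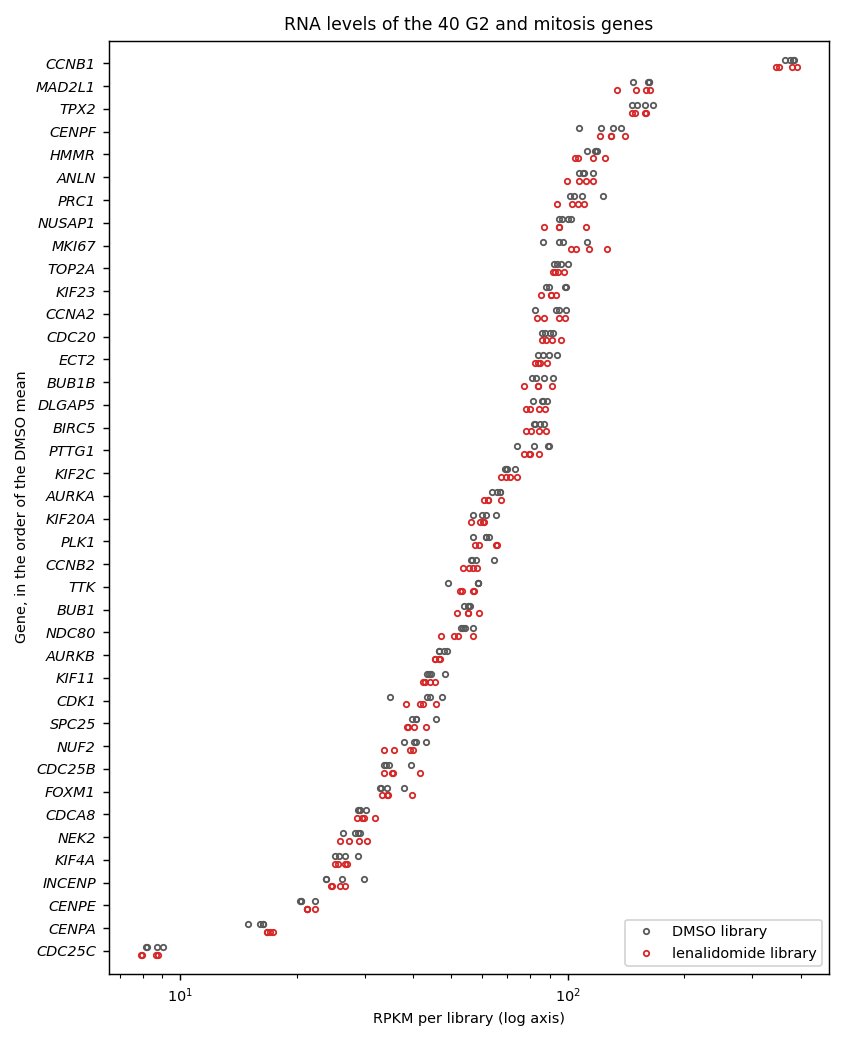
Level of each gene in each library, in RPKM on a log axis, with genes in the order of their DMSO mean, DMSO libraries in grey and Lenalidomide libraries in red. The red and grey circles of a gene overlap except for CENPA, and the order runs from CDC25C at 8.54 RPKM to CCNB1 at 376 RPKM in the DMSO means.

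The comparison of treatments asked whether Lenalidomide changed these RNAs within 16 h. By the quasi-likelihood test of edgeR, with p-values adjusted over all genes tested (Benjamini-Hochberg), 0 of the 40 genes passed the threshold of 0.05 in either direction, and the smallest adjusted p of a member was 0.999. Over all genes tested, 2 passed, which is 0.0144%. At an unadjusted p under 0.05 stood 1 member, MKI67, higher with Lenalidomide, where 4.18% of all genes tested stood, 3.26% on the higher and 0.919% on the lower side. DESeq2 likewise called none of the members and had MKI67 alone at an unadjusted p under 0.05. The log2 fold change had a median of -0.028 over the 40 genes, against 0.0025 over all genes tested and -0.0091 over the 6630 genes with at least the mean CPM of the lowest member. It was below 0 for 28 of the 40 genes, or 70.0%, against 48.7% of all genes tested and 56.3% of those 6630 genes. Over the fits that each lacked 1 library, the median was lowest, at -0.051, where Lenalidomide replicate 2 was missing. It was highest, at -0.011, where Lenalidomide replicate 4 was missing. The number of genes below 0 was 24 in that last fit and reached 32 without Lenalidomide replicate 3.

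Around each log2 fold change a 95% confidence interval was set, and its half-width had a median of 0.13 over the members. The interval lay wholly within 0.25 on either side of 0 for 38 of the 40 genes and within 0.2 for 33, and it included 0 for 39. The lowest bound of any member was -0.26, for NUF2, and the highest 0.38, for MKI67. On a linear scale these bounds are a level lower by 16.7% and a level higher by 29.9%. The members had between 682 and 50356 counts in each library, and their median coefficient of variation between replicates was 4.90% with DMSO and 5.26% with Lenalidomide, beside 5.36% and 5.67% for the 6630 genes.

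**Figure D3:**
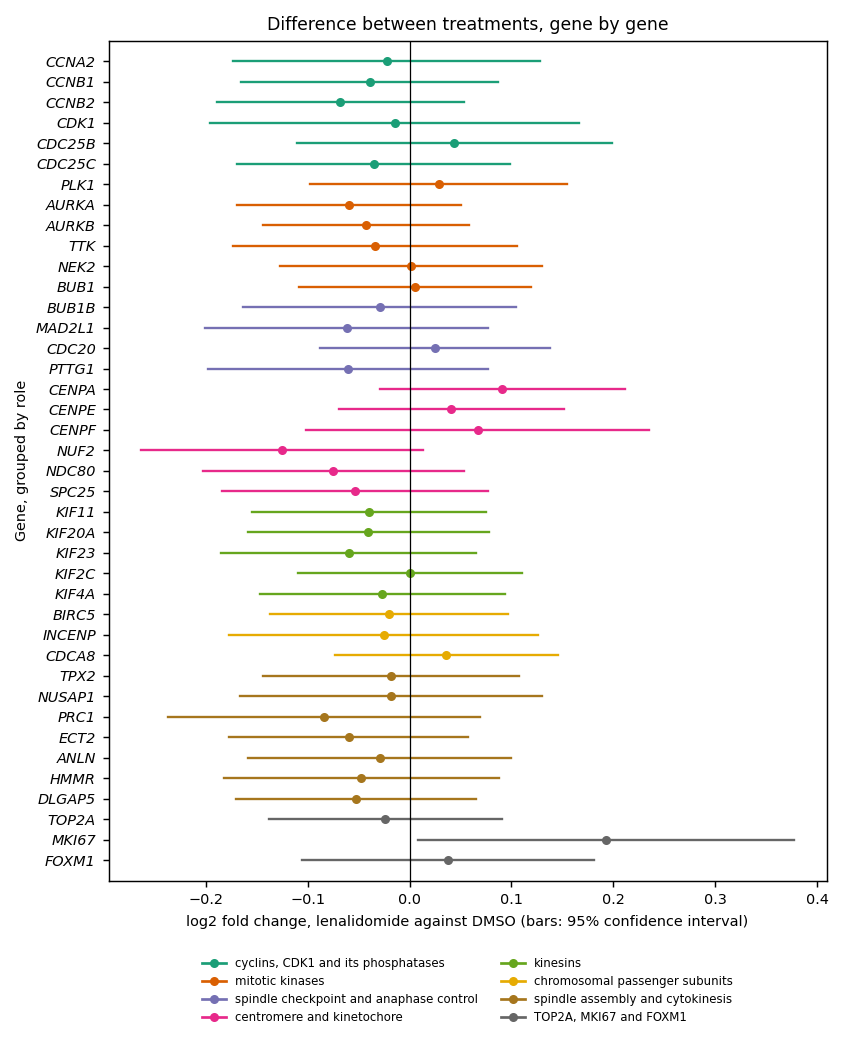
Log2 fold change of each of the 40 genes, Lenalidomide against DMSO, with its 95% confidence interval from edgeR's quasi-likelihood fit, coloured by role. The points run from -0.13 for NUF2 to 0.19 for MKI67, and every interval but that of MKI67 includes 0.

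The mitotic cyclins, CDK1 and its phosphatases did not pass the test in any of 6 cases, with log2 fold changes between -0.068 and 0.044 and all 6 intervals within 0.2 of 0. CCNB1 (Entrez gene 891) had 851, 901, 880.1 and 893 CPM in DMSO replicates 1 to 4 and 809, 914, 887 and 821 CPM with Lenalidomide. Lenalidomide replicates 1 and 4 lay below all DMSO libraries and replicate 2 above all of them, so that the treatments overlapped, with a log2 fold change of -0.039 (standard error 0.059). For CDK1, the kinase, the values were 192, 209.9, 154 and 196 CPM with DMSO and 188, 203, 184 and 169.9 CPM with Lenalidomide. DMSO replicate 3 was the lowest of the 8, and the Lenalidomide values lay within the DMSO range, with a log2 fold change of -0.015 (standard error 0.084) that turned positive without Lenalidomide replicate 4 or without DMSO replicates 2 or 4. CCNA2 was at 261, 266, 230.2 and 278 CPM in the DMSO libraries and at 243, 265, 276 and 234 CPM in the Lenalidomide libraries, and its lowest and its highest values were both DMSO libraries. CCNB2, the other B-type cyclin, had a log2 fold change of -0.068.

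CDC25B and CDC25C remove the inhibitory phosphates that WEE1 and PKMYT1 put on CDK1. CDC25B was at 142, 139, 162 and 139.7 CPM in the DMSO libraries and at 146, 139, 145 and 171 CPM in the Lenalidomide libraries. Its highest value in each treatment stood clear of the others, and the log2 fold change of 0.044 became -0.024 without Lenalidomide replicate 4. CDC25C was at 26.0, 26.9, 24.4 and 24.3 CPM in the DMSO libraries and at 26.1, 25.8, 23.7 and 23.6 CPM in the Lenalidomide libraries. The treatments overlapped, with a log2 fold change of -0.035 (standard error 0.062). The exons of CDC25C overlap those of FAM53C on the other strand, and those of CCNA2 overlap EXOSC9. No strand setting of the counting is stated beyond default parameters, so that reads of such pairs may be shared. Over all members, 15 have exons that overlap another gene in GENCODE annotation lifted to GRCh37, 13 of them on the opposite strand.

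Of the 6 mitotic kinases none passed the test, and 3 had a log2 fold change above 0 and 3 below. PLK1, which acts in mitotic entry, spindle assembly and cytokinesis, was at 124, 134, 136 and 134 CPM in the DMSO libraries and at 125, 128, 142 and 143 CPM in the Lenalidomide libraries. Its log2 fold change was 0.029 (standard error 0.059), and it was -0.0051 without DMSO replicate 1. AURKA, the kinase of the spindle poles, was at 170.4, 168, 162 and 171 CPM in the DMSO libraries and at 159, 155, 171 and 159 CPM in the Lenalidomide libraries. Lenalidomide replicates 1, 2 and 4 were below all DMSO values and replicate 3 was just above them, giving a log2 fold change of -0.060 (standard error 0.051). The table also lists AURKAPS1, a pseudogene of AURKA with 134 to 173 counts per library. BUB1, a kinase of the spindle checkpoint, was at 236, 228, 235 and 233 CPM in the DMSO libraries and at 218, 234, 249 and 233 CPM in the Lenalidomide libraries. The spread was wider with Lenalidomide, on both sides of the DMSO values, and the log2 fold change was 0.0053. TTK, the kinase that starts checkpoint signalling, was at 178, 178, 149 and 178 CPM in the DMSO libraries and at 161, 172, 173 and 159 CPM in the Lenalidomide libraries. DMSO replicate 3 was low, and all Lenalidomide values lay between it and the other DMSO values. For AURKB and NEK2 the log2 fold changes were -0.043 and 0.0014, and that of NEK2 changed sign with RLE scaling.

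Checkpoint and anaphase genes gave the same result, with 0 of 4 past the test and log2 fold changes between -0.062 and 0.025. CDC20, the activator of the APC/C, was at 149, 159, 151 and 156 CPM in the DMSO libraries and at 149, 152, 167 and 158 CPM in the Lenalidomide libraries. The log2 fold change was 0.025 (standard error 0.053). PTTG1, or securin, which holds separase inactive until anaphase, was at 66.1, 71.8, 59.7 and 72.2 CPM in the DMSO libraries and at 64.1, 64.6, 68.0 and 62.1 CPM in the Lenalidomide libraries. The Lenalidomide values lay inside the DMSO range. PTTG1 has near-identical copies, PTTG2 with 9 to 29 counts and PTTG3P with 183 to 275 counts per library, with which reads could be shared. The other members, MAD2L1 and the checkpoint protein BUB1B, had log2 fold changes of -0.062 and -0.029.

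Among 6 centromere and kinetochore genes the log2 fold changes lay on both sides of 0, from -0.13 to 0.091, and none passed the test. The 3 subunits of the NDC80 complex were all below 0, with -0.13 for NUF2, -0.075 for NDC80 and -0.054 for SPC25, and CENPA, CENPE and CENPF were all above it, with 0.041 for CENPE. NUF2 was at 79.8, 85.7, 75.3 and 80.9 CPM in the DMSO libraries and at 70.9, 79.2, 78.1 and 66.6 CPM in the Lenalidomide libraries. Lenalidomide replicates 1 and 4 were below all DMSO values and the other two were among them, with an unadjusted p of 0.0726 in edgeR. CENPF, a large kinetochore protein that accumulates in G2, was at 1347, 1101, 1413 and 1256 CPM in the DMSO libraries and at 1331, 1247, 1445 and 1336 CPM in the Lenalidomide libraries. The log2 fold change was 0.067 (standard error 0.078), and it was 0.0011 in the lowest of the fits that each left out 1 library.

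CENPA (Entrez gene 1058) was the single member whose treatments did not overlap, higher with Lenalidomide, and none was lower without overlap. Of all genes tested, 1.24% were higher and 0.84% lower without overlap. Its GRCh37 position is chromosome 2, 26987157 to 27023935, plus strand, and its exons overlap SLC35F6 on the same strand. Its values were 25.7, 25.2, 23.5 and 25.6 CPM with DMSO and 26.3, 26.2, 27.3 and 26.7 CPM with Lenalidomide. The highest DMSO value and the lowest Lenalidomide value were close, and the log2 fold change was 0.091 (95% confidence interval -0.029 to 0.21). In edgeR its unadjusted p was 0.127, so that it was not past the threshold. With 3 libraries against 4, non-overlap was more frequent over all genes too. Without DMSO replicate 3 it was found for 4 members and for 6.23% of all genes tested.

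Kinesins move chromosomes and organise the spindle midzone. None of the 5 passed the test, with log2 fold changes between -0.060 for KIF23 and 0.00020 for KIF2C, whose sign changed with the scaling. KIF20A, which is needed for cytokinesis, was at 214, 198, 226 and 209 CPM in the DMSO libraries and at 196, 209.8, 212 and 206 CPM in the Lenalidomide libraries. Its log2 fold change was -0.040 (standard error 0.055). The Lenalidomide values spread less than the DMSO values and overlapped them. KIF11, which slides spindle microtubules apart, and KIF4A had log2 fold changes of -0.040 and -0.027. KIF4A shares sequence with KIF4B, a retrogene with 566 to 911 counts per library. The 3 chromosomal passenger subunits beside AURKB had log2 fold changes of -0.020 for BIRC5, -0.025 for INCENP and 0.036 for CDCA8.

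All 7 genes of spindle assembly and cytokinesis had a log2 fold change below 0. So did 48.7% of all genes tested and 56.3% of the 6630 genes at or above the lowest member's mean CPM. The 7 values lay between -0.084 and -0.018, and none passed the test. The lowest was that of PRC1, which bundles midzone microtubules. It was at 399, 370.1, 452 and 380.3 CPM in the DMSO libraries and at 375, 404, 388 and 344 CPM in the Lenalidomide libraries. DMSO replicate 3 was the highest and Lenalidomide replicate 4 the lowest of the 8, and the log2 fold change of -0.084 (standard error 0.071) ran from -0.12 to -0.024 over the fits without a single library. The log2 fold changes of ECT2, which activates RhoA at the division plane, of DLGAP5 and of HMMR, both spindle proteins, were -0.060, -0.053 and -0.047. Without Lenalidomide replicate 4 the values of TPX2, NUSAP1 and ANLN turned to 0.0035, 0.031 and 0.0095.

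MKI67 (Entrez gene 4288) had the highest log2 fold change of the members. It codes for Ki-67, the coat protein of mitotic chromosomes used as a proliferation mark, and its GRCh37 position is chromosome 10, 129894923 to 129924687, minus strand, with no overlapping exons. Its values were 1213, 1082, 1406 and 1189 CPM with DMSO and 1315, 1278, 1419.8 and 1576 CPM with Lenalidomide. DMSO replicate 3 lay among the Lenalidomide values, and the other DMSO values were below all of them. The fitted level was 14.3% above that with DMSO, or 0.19 as log2 fold change (standard error 0.086, 95% confidence interval 0.0081 to 0.38). In edgeR the unadjusted p was 0.0419 and the adjusted p 0.999, so that MKI67 did not pass. Leaving out each library in turn gave log2 fold changes from 0.13, without Lenalidomide replicate 4, to 0.26, without DMSO replicate 3.

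The other two genes of this group had log2 fold changes closer to 0. TOP2A, which untangles sister chromatids, was at 579, 533, 557 and 544 CPM in the DMSO libraries and at 536, 547, 564 and 528 CPM in the Lenalidomide libraries. Its log2 fold change was -0.024 (standard error 0.053). FOXM1, the transcription factor of many of these promoters, was at 125, 119.7, 138 and 120.2 CPM in the DMSO libraries and at 126, 121, 125 and 145 CPM in the Lenalidomide libraries. The log2 fold change of FOXM1 was 0.038, and -0.022 without Lenalidomide replicate 4, which held its highest value.

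The members moved together in single libraries, and not alike within a treatment. Each gene was set against its own mean over the 8 libraries, in log2 CPM. In Lenalidomide replicate 4 the members had a median of -0.077, with 31 of 40 below their own mean, and in Lenalidomide replicate 1 a median of -0.042, with 33 of 40 below. In Lenalidomide replicates 2 and 3 the medians were 0.025 and 0.028, with 26 and 30 genes above their own mean. The 4 DMSO libraries had medians between -0.0056 and 0.037. Over all genes tested the same medians lay between -0.011 and 0.0058. Lenalidomide replicate 4 held the lowest value of 21 members and the highest value of 4. Among the latter were MKI67, CDC25B and FOXM1 with 0.28, 0.21 and 0.19 above their means. The share of all genes with an extreme value in Lenalidomide replicate 4 was not counted, so that these counts need not be particular to the members. That library was the smallest, with 28218471 counts, and had the most genes with any count, 19568, and the part of either in these values was not tested.

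**Figure D4:**
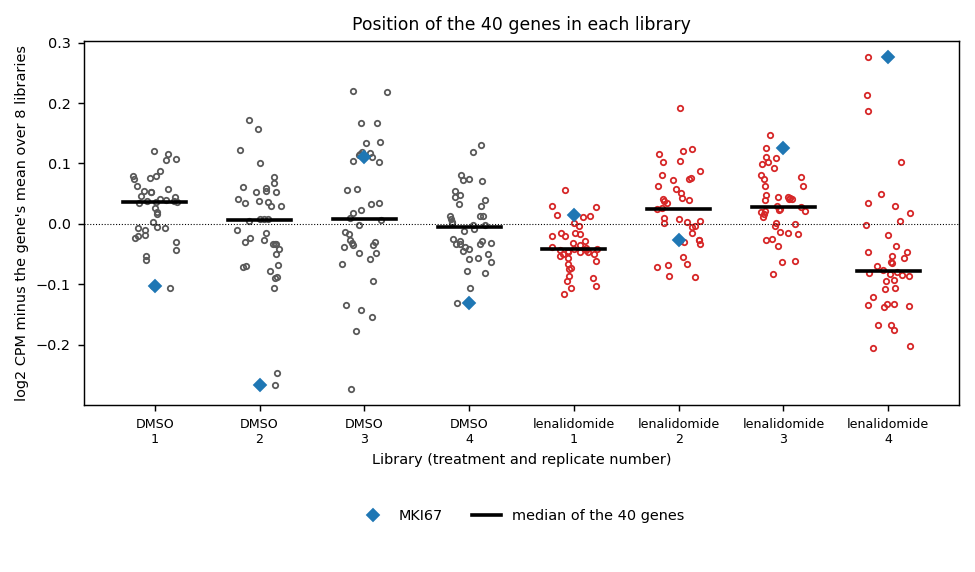
Each circle is 1 of the 40 genes in 1 library, as log2 CPM minus the mean of that gene over the 8 libraries, with the median of the 40 genes as a bar and MKI67 as a diamond. The medians of Lenalidomide replicates 1 and 4 lie lowest, at -0.042 and -0.077, while those of replicates 2 and 3 lie at 0.025 and 0.028.

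Other cell cycle genes were read from the same fit as lists. None of the 18 genes of the APC/C and its partners passed the test in either direction, and none of 20 condensin and cohesin genes, 18 regulators of the DREAM, RB and E2F group, 15 genes that control entry into G2 and mitosis, 12 CDK inhibitors and arrest genes or 44 genes of DNA replication and S phase. The median log2 fold changes were -0.011 for the APC/C list, 0.013 for condensin and cohesin, 0.0010 for the regulators, -0.031 for G2 entry, 0.012 for inhibitors and arrest genes and -0.021 for S phase. Of the S phase genes 30 of 44 were below 0, or 68.2%. So were 48.7% of all genes tested and 56.3% of the 6630 genes at or above the lowest mitotic member's mean CPM. Against their own means the S phase genes had a median of -0.082 in Lenalidomide replicate 4, where the mitotic genes had -0.077. In other libraries the lists lay farther apart, with -0.012 for S phase and -0.042 for the mitotic genes in Lenalidomide replicate 1, and 0.043 and 0.0086 in DMSO replicate 3. Likeness of the lists was not tested.

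MYBL2, or B-MYB, which turns on the G2 promoters with FOXM1, averaged 157 ± 12.1 CPM with DMSO and 158 ± 2.21 with the drug (SD, n = 4 each). CDKN1A, the CDK inhibitor p21 and a p53 target, averaged 87.8 ± 3.39 and 86.9 ± 7.05 CPM, and WEE1 100.4 ± 3.86 and 100.3 ± 9.23 CPM (SD, n = 4 each). UBE2C, the ubiquitin-conjugating enzyme of the APC/C, had a log2 fold change of -0.070, and PCNA, the sliding clamp of replication, of -0.024. For each of these 5 genes the 95% confidence interval included 0. The highest and lowest log2 fold changes, among genes averaging 10 CPM or more, were 0.14 for CDC16 and -0.070 for UBE2C in the APC/C list, 0.31 for the cohesin regulator PDS5B and -0.035 for STAG2, 0.097 for E2F3 and -0.080 for LIN52, 0.041 for CKS1B and -0.099 for MASTL, 0.086 for CCNG1 and -0.11 for GADD45B, and 0.14 for TYMS and -0.085 for CCNE2. PDS5B and TYMS were at an unadjusted p under 0.05 by the quasi-likelihood test, with 0.0183 and 0.0466, and both had an adjusted p of 0.999.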

How the data were processed

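The series holds 8 RNA libraries of Hct116 cells, 4 per treatment. Per the paper's methods, total RNA libraries (ScriptSeq v2) were sequenced on an Illumina instrument, and the authors aligned reads to hg19 with QuasR, spliced alignments allowed and defaults otherwise. They deposited raw read counts per UCSC known gene, unnormalized, beside exonic widths. The submitters' processing notes name bcl2fastq 2.17. The QuasR version is not given in the sources used here.

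Genes were kept by filterByExpr (minimum count 10, minimum total 15). TMM scaling and edgeR 4.0.16's quasi-likelihood test were run in R 4.3.3 over all 13925 genes kept, with Benjamini-Hochberg adjustment and a threshold of 0.05. CPM and RPKM use TMM-scaled library sizes, and log2 CPM a prior count of 2. Standard errors and confidence intervals were derived from each log2 fold change and its F value. Library totals were 28218471 to 37473413 counts, every Lenalidomide library being smaller than every DMSO library, and TMM factors 0.971 to 1.02. The 70 rows without a symbol, with 0.0223% of counts, have gene identifiers and were kept. Pairs of libraries of one treatment differed beyond sampling noise (chi-square per degree of freedom 5.55 to 24.1 over 12 pairs). The range was similar between treatments, at 5.45 to 25.2 over 16 pairs.

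Members and gene lists were chosen with earlier results of these data known. Named are all members, with values per library for 16 fixed genes, for the extremes of fold change and p and for genes without overlap. Of each other list the extremes and 5 fixed genes are named, and PDS5B and TYMS were also described by their p after it was seen. Alternatives were RLE scaling, DESeq2 1.42.0, other filters, thinning, a replicate block and leaving out each library. The fits were tested on simulated data.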

Additional observations from a re-analysis of the deposited data

Results flagged for a closer look

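The 40 genes give 80 sets of 4 replicate values, and in 6 of them the highest or lowest value stood far apart from the rest. By chance about 1 in 20 sets, here 4, would do so. DMSO replicate 3 held 4 of the 6. There CDC25B was at 162 CPM, against 139 to 142 CPM in the other DMSO libraries, and SPC25 at 61.8 CPM, against 53.4 to 54.6 CPM. In the same library TTK was at 149 CPM, against 178 CPM in each of the others, and MAD2L1 at 212 CPM, against 231 to 233 CPM. For CENPE the DMSO replicate 1 value was 192.4 CPM and the other DMSO values 175 to 176 CPM, and the Lenalidomide replicate 3 value was 192.3 CPM with 183 CPM in each of the other Lenalidomide libraries. Without DMSO replicate 3 the members at an unadjusted p under 0.05 numbered 3 in place of 1, and the share over all genes was 6.03% in place of 4.18%.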

How the results depend on the processing

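The count of members past an adjusted p of 0.05 was 0 under each of the 14 alternatives, and their smallest adjusted p was 0.544. The counts of the 6 other cell cycle lists were also 0 under each of them. The median log2 fold change of the members, -0.028 in the main fit, ran from -0.051 to -0.011 over the fits that each left out 1 library. No alternative moved it by more than 0.051, the SD between replicate libraries of the members' median log2 CPM. That mark is larger than the median itself, and leaving out 1 of 4 libraries could hardly pass it. It therefore says little on how stable the median is. Members without overlap between treatments numbered from 1 to 4 with 1 library left out, where 3.45% to 6.27% of all genes had none. They were 4 without DMSO replicate 3 (6.23% of all genes), and 2 without DMSO replicate 1 (3.73%), Lenalidomide replicate 2 (6.27%) or Lenalidomide replicate 3 (5.13%). Members at an unadjusted p under 0.05 numbered 0 without DMSO replicates 1, 2 or 4 or Lenalidomide replicate 4, where 2.56%, 3.08%, 4.23% and 2.19% of all genes stood there. They numbered 3 without DMSO replicate 3 (6.03% of all genes) and 3 without Lenalidomide replicate 2 (7.42%). The count over all genes, 2, was 9 with DESeq2, 4 without a filter beyond 1 count, and from 1 to 2 with each library left out. The cause was not tested. The 4 libraries per treatment limit the precision to the intervals given.

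In the fit with a replicate block 6 genes passed over all genes, 0 of the members did, and the unadjusted p of MKI67 was 0.0138 by the quasi-likelihood test. Same-numbered libraries correlated in their deviations between -0.024 and 0.27, and libraries with other numbers between -0.29 and 0.17. These ranges overlap, and the highest value was that of DMSO replicate 4 with Lenalidomide replicate 4. The sources used here do not say that a number marks a shared batch, and whether it does was not tested. With this block NEK2 was at -0.000155 and KIF2C at -0.000345.

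Of 560 values for single members, 521 kept their direction and 39 changed sign, in 16 members, all with main values no farther than 0.044 from 0. With RLE scaling NEK2 was at -0.0024 and KIF2C at -0.0039, with DESeq2 at -0.0024 and -0.0038, and without a filter beyond 1 count at -0.0068 and -0.0080, where BUB1 was at -0.0032. With libraries thinned to the smallest total KIF2C was at -0.0041. When libraries were left out in turn, the values were from -0.078 to 0.017 for CCNA2, from -0.10 to 0.042 for CDK1, from -0.024 to 0.095 for CDC25B, from -0.0051 to 0.061 for PLK1, from -0.039 to 0.040 for NEK2, from -0.029 to 0.036 for BUB1, from -0.071 to 0.0091 for BUB1B, from -0.0071 to 0.047 for CDC20, from -0.025 to 0.021 for KIF2C, from -0.054 to 0.011 for KIF4A, from -0.052 to 0.0069 for BIRC5, from -0.064 to 0.045 for INCENP, from -0.045 to 0.010 for TPX2, from -0.092 to 0.031 for NUSAP1, from -0.065 to 0.0095 for ANLN and from -0.022 to 0.082 for FOXM1.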
